A study of Mus musculus with 2 samples.

Results

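Immediate early genes are genes whose transcripts accumulate within minutes of a stimulus, with no need for new protein, and 32 of them are described here in single cells of the mouse pituitary gland. They were taken as a list of symbols, by function and not by their level in these data, and all 32 were found among the 32285 genes of the files. Whole glands of males of the inbred mouse strain C57BL/6 had been pooled, 10 at an age of 2 months (young) and 10 at 20 months (old), and each pool gave 1 droplet-based library read from the 3' ends of transcripts. No treatment or genotype separated the groups. Both pools were kept in cold storage solution, minced and dissociated with enzymes before capture, per the labels' protocols, and age and preparation cannot be told apart. Because each age is a single library, differences between ages carry no test and no replicate spread. The ranges in brackets are 95% intervals for counting error alone.

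Most of these genes encode transcription factors or brakes on the signals that switch them on. MAP kinase cascades and protein kinase A act through the factors SRF and CREB, which already sit on the promoters, and the products then drive a later set of genes. Fos and Jun proteins pair to form AP-1, Egr proteins are zinc finger factors, and Nr4a proteins are orphan nuclear receptors that need no ligand. In corticotrophs, the pituitary cells that make corticotropin, Nr4a1 is a known target of the hypothalamic hormone CRH and binds the promoter of the hormone gene Pomc. Arc and Npas4 are best known from neurons, where they follow synaptic activity and calcium entry. Enzymatic dissociation is itself a known inducer of the family.

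Libraries held 154510099 (young) and 138427393 (old) UMIs (unique molecular identifiers, the tags by which captured transcripts are counted). Of 8531 young and 9017 old barcodes kept, 1 and 5543 lay in a cluster that matched empty droplets and was left out as free RNA. Another 775 and 376 lay in clusters with a median of under 0.5% of UMIs from the nuclear RNA Malat1 and were left out too. The remaining 7755 and 3098 cells fell into classes named by markers, written with "like" after the name, and 16 barcodes occurred in both libraries outside free RNA. The corticotroph-like class bore out its name, with the corticotroph factor gene Tbx19 at 228 (young) and 186 (old) CPM over all UMIs, against 4.58 in other cells. CPM is the standard per-library scaling of counts, here a gene's UMIs in a class brought to the same total for every class and age. The lactotroph-like class held Tshb among its leading genes, so thyrotrophs were not separated from it. All other levels are CPM over a total without 7 hormone and 13 mitochondrial genes, so that a difference in hormone content does not shift every other gene. The 32 genes and the related lists were kept out of the genes used for clustering.

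The promoters of several members carry the binding letters of CREB. Shown are those of Fos, the best known member, of the 3 Nr4a genes, Npas4 and Egr4, all with lower levels in old corticotroph-like cells, and of Dusp5 for its SRF site. RefSeq promoters (build GRCm38.p6, a table of 27025 genes) were matched by symbol for 26 of the 32 members and not for Arc, Egr1, Egr3, Gem, Ier2 and Rasd1. Each line gives the 250 bases before the gene start, 5′ to 3′ on the strand of the gene. Capitals mark TGACG, the core of the cAMP response element, or its complement CGTCA, in the first 6 genes, and the CArG box bound by SRF in Dusp5.
Fos (chr12:85473640-85473889, plus strand): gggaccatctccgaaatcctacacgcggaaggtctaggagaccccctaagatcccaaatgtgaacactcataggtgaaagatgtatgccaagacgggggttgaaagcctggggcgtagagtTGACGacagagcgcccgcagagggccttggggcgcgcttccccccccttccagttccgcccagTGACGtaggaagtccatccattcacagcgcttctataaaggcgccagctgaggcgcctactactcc
Nr4a1 (chr15:101266596-101266845, plus strand): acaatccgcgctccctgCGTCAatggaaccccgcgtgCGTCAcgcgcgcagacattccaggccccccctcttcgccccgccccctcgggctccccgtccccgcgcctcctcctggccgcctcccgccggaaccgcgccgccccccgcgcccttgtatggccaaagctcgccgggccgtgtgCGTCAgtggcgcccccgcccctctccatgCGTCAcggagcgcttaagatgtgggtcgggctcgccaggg
Nr4a2 (chr2:57124004-57124253, minus strand): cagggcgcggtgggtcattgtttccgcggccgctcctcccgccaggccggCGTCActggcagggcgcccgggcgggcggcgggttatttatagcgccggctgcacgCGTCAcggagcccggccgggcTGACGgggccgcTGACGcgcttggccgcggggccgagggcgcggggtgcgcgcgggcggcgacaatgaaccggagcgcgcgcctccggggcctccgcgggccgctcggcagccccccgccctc
Nr4a3 (chr4:48045055-48045304, plus strand): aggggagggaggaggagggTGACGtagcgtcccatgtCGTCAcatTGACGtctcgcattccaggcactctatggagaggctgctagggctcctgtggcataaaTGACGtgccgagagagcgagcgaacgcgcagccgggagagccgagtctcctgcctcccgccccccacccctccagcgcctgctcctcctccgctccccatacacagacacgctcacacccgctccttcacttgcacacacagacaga
Npas4 (chr19:4989972-4990221, minus strand): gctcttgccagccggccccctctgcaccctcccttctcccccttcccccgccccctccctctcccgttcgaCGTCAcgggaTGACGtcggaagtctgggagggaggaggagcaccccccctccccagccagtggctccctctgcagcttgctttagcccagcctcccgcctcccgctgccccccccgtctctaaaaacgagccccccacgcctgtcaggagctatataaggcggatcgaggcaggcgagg
Egr4 (chr6:85513590-85513839, minus strand): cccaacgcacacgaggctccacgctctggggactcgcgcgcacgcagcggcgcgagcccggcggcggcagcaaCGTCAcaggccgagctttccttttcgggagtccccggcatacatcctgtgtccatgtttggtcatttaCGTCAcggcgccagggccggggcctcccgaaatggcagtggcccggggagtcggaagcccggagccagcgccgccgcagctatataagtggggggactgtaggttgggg
Dusp5 (chr19:53528895-53529144, plus strand): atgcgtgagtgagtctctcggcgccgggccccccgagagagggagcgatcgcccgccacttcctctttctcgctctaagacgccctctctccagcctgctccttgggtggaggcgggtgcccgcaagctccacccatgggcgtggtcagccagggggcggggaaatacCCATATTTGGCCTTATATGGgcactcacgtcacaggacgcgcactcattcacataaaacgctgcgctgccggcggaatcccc
On either strand, the core stood in 18 of the 26 members (69.2%), against 19.8% of all genes in the table. A gene was counted where any of its windows matched, and the table held 32851 windows for its 27025 genes. The lines above show 1 window per gene. Nr4a1, Nr4a2 and Nr4a3 held 4 matches each in the windows shown, the nearest to the start at bases -40 to -36 in Nr4a1. The full element TGACGTCA, which contains the core, stood in 3 members (11.5%), Btg2, Dusp1 and Maff, against 1.77% of genes. The letters GCGNGGGCG, bound by Egr factors, stood in 11 (42.3%) against 5.33%. The CArG box stood in 3 (11.5%), Dusp5, Egr2 and Zfp36, against 1.62%, and Dusp5 held a pair of boxes side by side at bases -82 to -63. The AP-1 letters TGANTCA stood in 0 of the 26 members, against 7.82% of genes. Base composition was not matched in these shares, and a match is a run of letters, not a measured binding site.

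Within the young library, corticotroph-like cells led the other classes in CPM for most members. They had the highest CPM of 17 of the 32 genes, macrophage-like cells of 6, T or NK cell-like cells of 4 and monocyte-like cells of 2. For Arc, Maff and Mafk the corticotroph-like interval overlapped that of the next class. In the old library they were highest for 1 gene, Btg2, and the lead was spread over macrophage-like (7), somatotroph-like (6), melanotroph-like (6), T or NK cell-like (4) and other classes. The class with the highest level was the same in both libraries for 13 of the 32 members. The ranked classes, those with at least 30 cells in the library, were not the same, 13 in the young and 14 in the old one. Gonadotroph-like cells were ranked only in the young library, and neutrophil-like and oligodendrocyte-like cells only in the old one. Neutrophil-like cells led there for Maff and Per1, with intervals that overlapped those of the next class.

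The AP-1 genes were the first group. Fos was highest in young corticotroph-like cells, at 11958 CPM, followed by macrophage-like cells at 9122, and lowest in B cell-like cells at 1252. In the old library Fos was highest in somatotroph-like cells at 8958 CPM, with macrophage-like cells at 8428 and fibroblast-like cells lowest at 1569. Junb stood at 10018 CPM in young corticotroph-like cells and at 5010 in young somatotroph-like cells. In the old library the same classes stood at 5245 and 5390, so the gap of the young library was not seen there. Jun was highest in macrophage-like cells of both libraries, at 9047 and 9942 CPM. Fosl2, an AP-1 partner with slower kinetics than Fos, was highest in T or NK cell-like cells of both, at 256 and 322 CPM. Its old interval there overlapped that of neutrophil-like cells.

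Nuclear receptor and Egr genes followed the same split. Nr4a1 was highest in young corticotroph-like cells (1047 CPM) and, in the old library, in monocyte-like cells (1017 CPM). Nr4a3 was highest in T or NK cell-like cells of both libraries, at 210 and 262 CPM, where the young interval overlapped that of monocyte-like cells. Egr1 was highest in young corticotroph-like (4796 CPM) and old somatotroph-like cells (4753 CPM). Egr3 was highest in young corticotroph-like cells at 323 CPM and in old melanotroph-like cells at 665 CPM.

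Several members were highest in immune or vascular classes at both ages. Atf3, a stress-induced factor, was highest in macrophage-like cells at 5072 (young) and 3395 (old) CPM. Klf6 (3036 and 2333 CPM), Klf2 (2352 and 2612), Ier5 (1476 and 1215) and Dusp1 (2739 and 2439), which encodes a phosphatase that turns off MAP kinases, were highest in the same class. Ier3, linked to cell survival, was highest in endothelial cell-like cells, at 372 and 794 CPM, and was not detected in young melanotroph-like cells. Dusp5, a MAP kinase phosphatase gene, was highest in T or NK cell-like cells at 475 and 428 CPM, and Dusp2 in monocyte-like cells at 411 and 399 CPM. Of the 13 members with the same leading class in both libraries, Btg2 (corticotroph-like) and Egr4 (melanotroph-like) were highest in endocrine cells. In the young library the leading intervals of Ier3, Dusp2 and Egr4 overlapped those of the next class. Immune classes also lost the lead, as T or NK cell-like cells did for Gem (228 CPM when young) to melanotroph-like cells (245 CPM when old) and B cell-like cells for Jund to somatotroph-like cells, with overlapping intervals of the leading pair in both libraries.

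**Figure D1:**
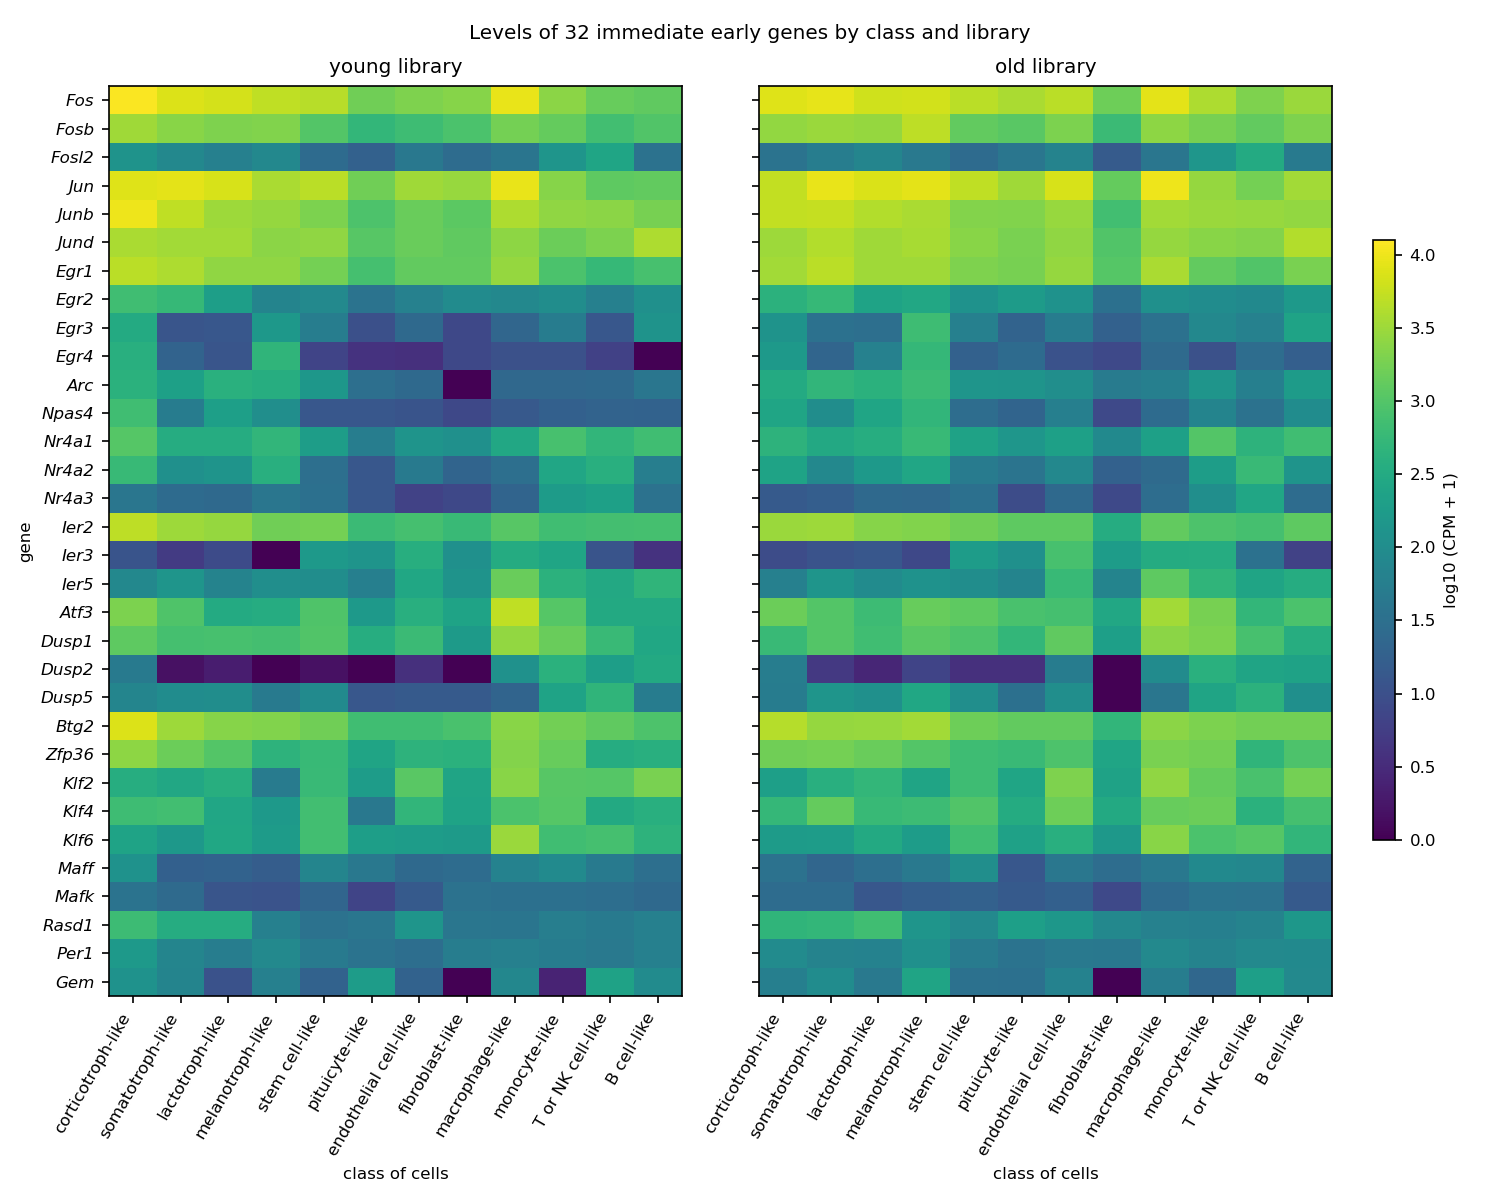
Levels of the 32 members, log10 (CPM + 1), in 12 classes (columns) of the young (left) and old (right) library. The corticotroph-like column is the brightest one for most rows on the left, for example Junb at 10018 CPM, and no longer on the right, where Junb was at 5245 CPM.

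Summed over the 32 genes, the share of UMIs was 6.71% in young and 4.28% in old corticotroph-like cells, and 4.38% and 4.99% in somatotroph-like cells. Macrophage-like cells were at 5.16% and 5.11%, lactotroph-like cells at 3.53% and 3.98% and melanotroph-like cells at 2.72% and 4.54%. Empty droplets of at most 100 UMIs held 3.45% and 2.997%, within the range of the endocrine classes in the young library and below each of them in the old one. The spread over cells was wide in every class. In corticotroph-like cells the quartiles of the share per cell were 4.76% and 8.60% around a median of 7.05% in the young library, and 1.88% and 5.86% around 3.92% in the old one. Stem cell-like cells were skewed in both libraries, with medians of 1.02% and 1.13% and upper quartiles of 3.18% and 2.98%, far above the medians.

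**Figure D2:**
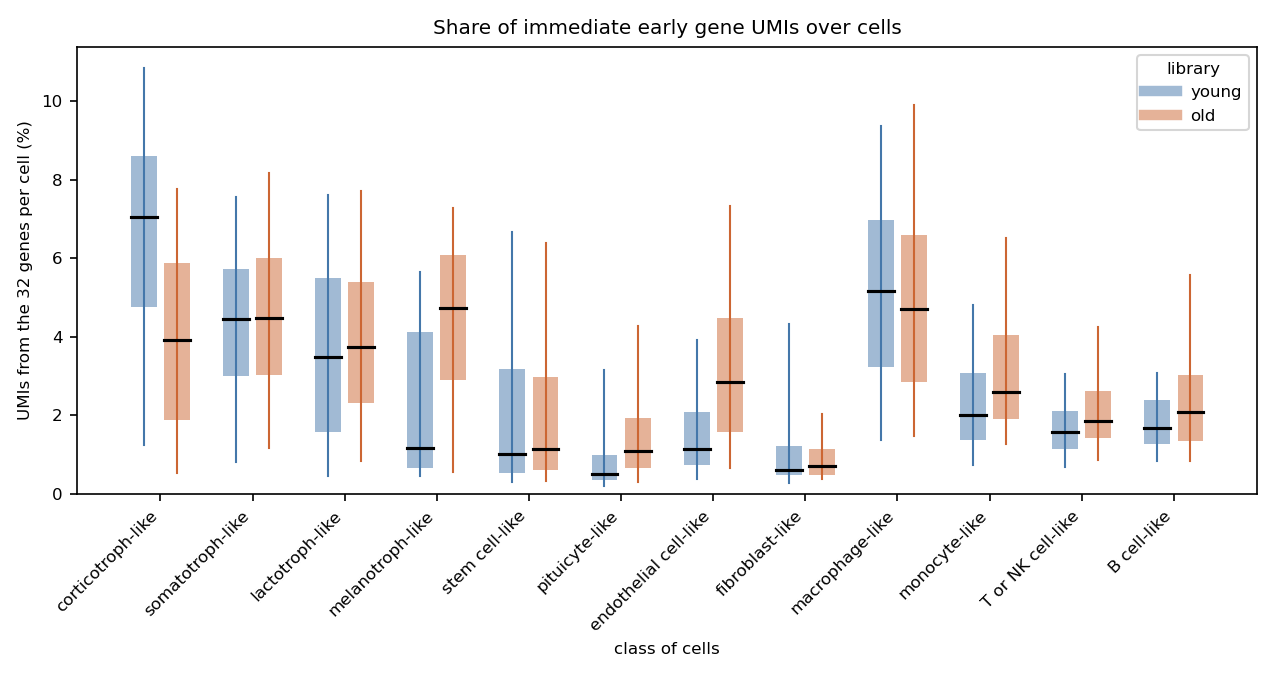
Percent of a cell's UMIs from the 32 genes, by class and library (young blue, old orange), as median (black line), quartiles (box) and 5th to 95th percentile (line) over cells, which are not replicates. The corticotroph-like median was 7.05% (young) and 3.92% (old), and the melanotroph-like median 1.17% and 4.74%.

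With each cell thinned to 2000 UMIs, the median number of members with at least 1 UMI was 16 in young and 13 in old corticotroph-like cells, 12 and 13 in somatotroph-like, 10 and 14 in melanotroph-like and 15 and 15 in macrophage-like cells. In several classes members tended to occur in the same cells, by an amount that differed between classes and genes. Young stem cell-like cells with an Arc UMI had a median of 14 other members detected, against 8 in cells without one, and in the old library the medians were 12 and 9. Old corticotroph-like cells with an Npas4 UMI had 14 others, against 12 without. Among young somatotroph-like cells the medians were 13 with and 11 without an Arc UMI, a small step beside that in stem cell-like cells. There the cells with Arc had fewer UMIs before thinning, at a median of 6206.5 against 10799. Their Malat1 was higher, at 4.70% against 2.40%, and the part of either was not tested. In macrophage-like cells the medians were 15 with and 15 without an Arc UMI in both libraries.

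Between the libraries, corticotroph-like cells (1090 young, 262 old) had a lower old level for 31 of the 32 members, beside 41.1% of all genes. The median log2 ratio of old over young was -0.65. The median over all 12856 genes measured in the class, those with at least 20 UMIs in both libraries together, was 0.09. At least 1.5-fold lower were 18 members, where 7.16% of all genes passed that fold, and none was as much higher, where 12.6% did. Of the 32 members, 22 had their lowest ratio over the 12 classes compared in these cells. Old cells of the class had more UMIs, with a median of 10273 against 7735, and more Malat1, at 6.58% against 4.66%, and the part of either in the result was not tested. The median ratio lay between -0.58 and -0.76 under all 16 other settings of filters, clustering, totals and free RNA.

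AP-1 genes in corticotroph-like cells differed from each other in size. Fos stood at 11958 (young) and 8021 (old) CPM, a ratio of 0.671, and Jun at 7945 and 5242, a ratio of 0.660. Junb stood at 10018 and 5245 CPM, a ratio of 0.524, with 5146 CPM in old empty droplets. Fosl2 was at 126 and 35.3 CPM, a ratio of 0.280 (0.224 to 0.347) and the smallest of the 32. The closely related Fosb was at 3293 and 2760 CPM, a ratio of 0.838, so Fos family genes differed by unequal factors. Maff, a small Maf protein that pairs with other leucine zipper factors, was at 121 and 34.5 CPM, a ratio of 0.284 (0.226 to 0.353). Old empty droplets held 40.4 CPM of Fosl2 and 35.2 of Maff, so both old levels lay under that of free RNA. The young levels lay above the 78.0 and 59.1 CPM of young empty droplets.

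All 3 Nr4a genes were lower in old corticotroph-like cells. Nr4a1 was at 1047 and 442 CPM (ratio 0.422), Nr4a2 at 582 and 238 (0.409) and Nr4a3 at 40.04 and 13.3 (0.332). The old level of Nr4a3 was about that of old empty droplets, 13.5 CPM. Egr3 was at 323 and 128 CPM (0.396), while Egr1 was at 4796 and 3369 (0.702). The only member that was higher was Dusp2, at 48.8 and 52.7 CPM, with an interval of the ratio that spanned 1 (0.882 to 1.32). The phosphatase gene Dusp1 was at 1188 and 592 CPM and Btg2, whose product restrains cell division, at 7730 and 4461. Old empty droplets held 1065 CPM of Dusp1, above the old cells. The 18 members with the core TGACG had a median log2 ratio of -0.80 in these cells, with values from -1.81 to -0.255. The 8 matched members without it had -0.43, from -1.83 to 0.115, so the groups overlapped. For the Egr letters the medians were -0.79 with and -0.60 without. In somatotroph-like cells they were 0.12 with and 0.23 without the core. In lactotroph-like, melanotroph-like, stem cell-like and macrophage-like cells the median was higher with the core. This describes 26 members only.

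Of 20 marker lists of other classes, 16 were higher in old corticotroph-like cells, with sums from 1.78 to 158 CPM (young) and from 0.759 to 159 CPM (old). Of the 112 entries in these lists, 22 were at 0 in the young and 24 in the old cells. Their part in the result was not tested, and with free RNA subtracted by either profile the median of the members was -0.75 and -0.76. In empty droplets of at most 100 UMIs the members' median log2 ratio was -0.15 beside -0.14 over all genes, and in barcodes of 500 to 900 UMIs 0.32 beside 0.09.

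Somatotroph-like cells, the growth hormone producers (4000 young, 1145 old), differed less and mostly in the other direction. Old levels were higher for 25 of the 32 members and lower for 7, where 47.0% of all genes were lower. The median was 0.24 beside 0.03 over all 14766 genes. At least 1.5-fold higher were 7, where 12.1% of all genes were, and as much lower were 2, where 8.64% were. With all UMIs as the total, hormones included, the median was 0.50. The class joined 4 clusters, with medians of 0.26, 0.17, 0.10 and 0.12 within them, all of the same sign. The first of these held 619 young but only 23 old cells. In the last, the largest (1408 young, 459 old), 13 of 31 measured members were lower. Their summed share of UMIs there was 5.21% (young) and 4.93% (old) over all members. Jun was at 11712 and 9186 CPM in it and Junb at 5569 and 4653, while Fos was at 6854 and 7643.

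The members that were highest by ratio in somatotroph-like cells came from different families. Arc stood at 213 and 494 CPM, a ratio of 2.32 (2.22 to 2.42). Klf4, a factor that restrains growth in many tissues, was at 716 and 1375 CPM (1.92), Rasd1, a small GTPase gene induced by glucocorticoids, at 341 and 517 (1.52) and Npas4 at 51.6 and 102 (1.97). Egr3 was at 11.2 and 32.6 CPM (2.92) and Ier3 at 4.21 and 10.0 (2.38), both under the levels in empty droplets of their library, which were 63.2 and 52.4 CPM for Egr3 and 49.8 and 92.7 for Ier3. Lowest by ratio were Nr4a3, at 26.1 and 16.05 CPM (0.616), Fosl2, at 82.1 and 53.3 (0.649), Nr4a2, at 114 and 82.5 (0.721), Nr4a1, at 346 and 294 (0.851), Btg2 (0.908) and Per1, a clock gene (0.926). The 3 Nr4a genes and Fosl2 were thus lower in the old library in both of these classes. They were lower in old empty droplets too. Nr4a1 was at 455 and 324 CPM there, Nr4a2 at 83.5 and 47.4, Nr4a3 at 30.5 and 13.5 and Fosl2 at 78.0 and 40.4. Somatotroph-like cells lay under that level for Nr4a1 in both libraries and for Nr4a3 in the young one. Over all settings the log2 ratio of Nr4a1 in these cells ran from -0.33 to 0.03. Abundant members differed by less than 1.5-fold, with Fos at 7576 and 8958 CPM, Jun at 8623 and 9079, Junb at 5010 and 5390 and Egr1 at 3944 and 4753.

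**Figure D3:**
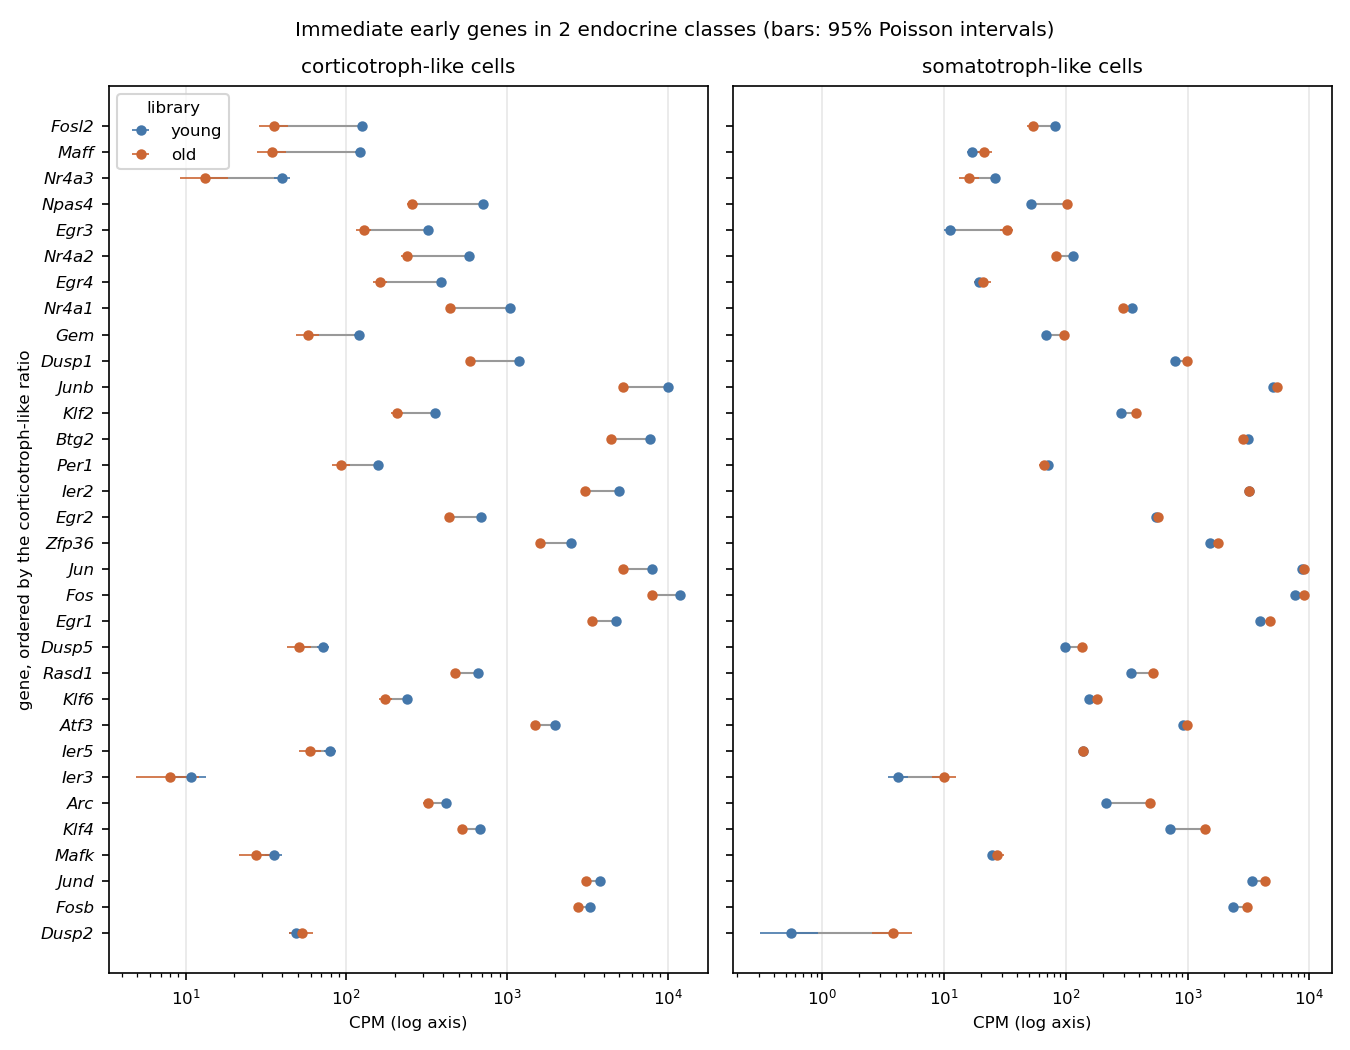
Young (blue) and old (orange) CPM of each member, joined by a line, in corticotroph-like (left) and somatotroph-like (right) cells on log axes, with 95% Poisson intervals. On the left 31 of 32 orange points lie below the blue ones. On the right 25 of 32 lie above.

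Lactotroph-like cells, the prolactin producers (393 young, 266 old), had higher old levels for 26 of 31 measured members. The other 5 were lower, where 40.3% of all genes were, and the median was 0.32 beside 0.13. At least 1.5-fold higher were 8, beside 20.2% of all genes, and none was as much lower, beside 8.67%. Highest by ratio were Egr4, at 11.0 and 62.0 CPM (5.65, 3.72 to 8.85), and Gem, whose product limits calcium channels, at 9.83 and 44.7 CPM (4.55). Egr3 (2.51), Klf4 (2.18), Rasd1 (1.98) and Atf3 (1.98) followed. Egr4, Gem, Egr3 and Atf3 lay under the level of empty droplets in both libraries, which for Gem was 62.8 and 64.3 CPM, and Klf4 and Rasd1 lay under it in the young one. Fos was at 6880 and 6466 CPM, Jun at 7089 and 7505, Junb at 3159 and 4257, Egr1 at 2634 and 3285 and Nr4a1 at 344 and 353. Lowest by ratio were Ier2 at 2852 and 2270 CPM (0.796), Dusp1 (0.851), Fos (0.940), Nr4a3 (0.970) and Jund (0.998). Ier2, Dusp1 and Junb also lay under the level of empty droplets in both libraries, and Nr4a1 and Nr4a3 in the young one. Median depth in this class was 8437 (young) and 4936 (old) UMIs, and the median of Malat1 3.54% and 8.02%. Their part in the result was not tested.

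Melanotroph-like cells, which also transcribe Pomc but lie in the intermediate lobe, stood the other way from the corticotroph-like ones. Old levels were higher for 26 of 29 measured members and lower for 3, where 54.5% of all genes were lower. The median was 0.67 beside -0.05. At least 1.5-fold higher were 16, beside 14.4% of all genes, and 2 were as much lower, beside 16.6%. Fos stood at 5116 and 6597 CPM, Fosb at 2130 and 4955, Jun at 3782 and 8490, Junb at 2810 and 3832, Egr1 at 2654 and 3239 and Nr4a1 at 499 and 570. Only 44 young cells against 150 old ones stand behind these values. In young cells the share of UMIs from the family had a median of 1.17% with quartiles of 0.66% and 4.11%, against 2.91% and 6.09% around 4.74% in old cells, so that the young class held more cells with little of it.

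**Figure D4:**
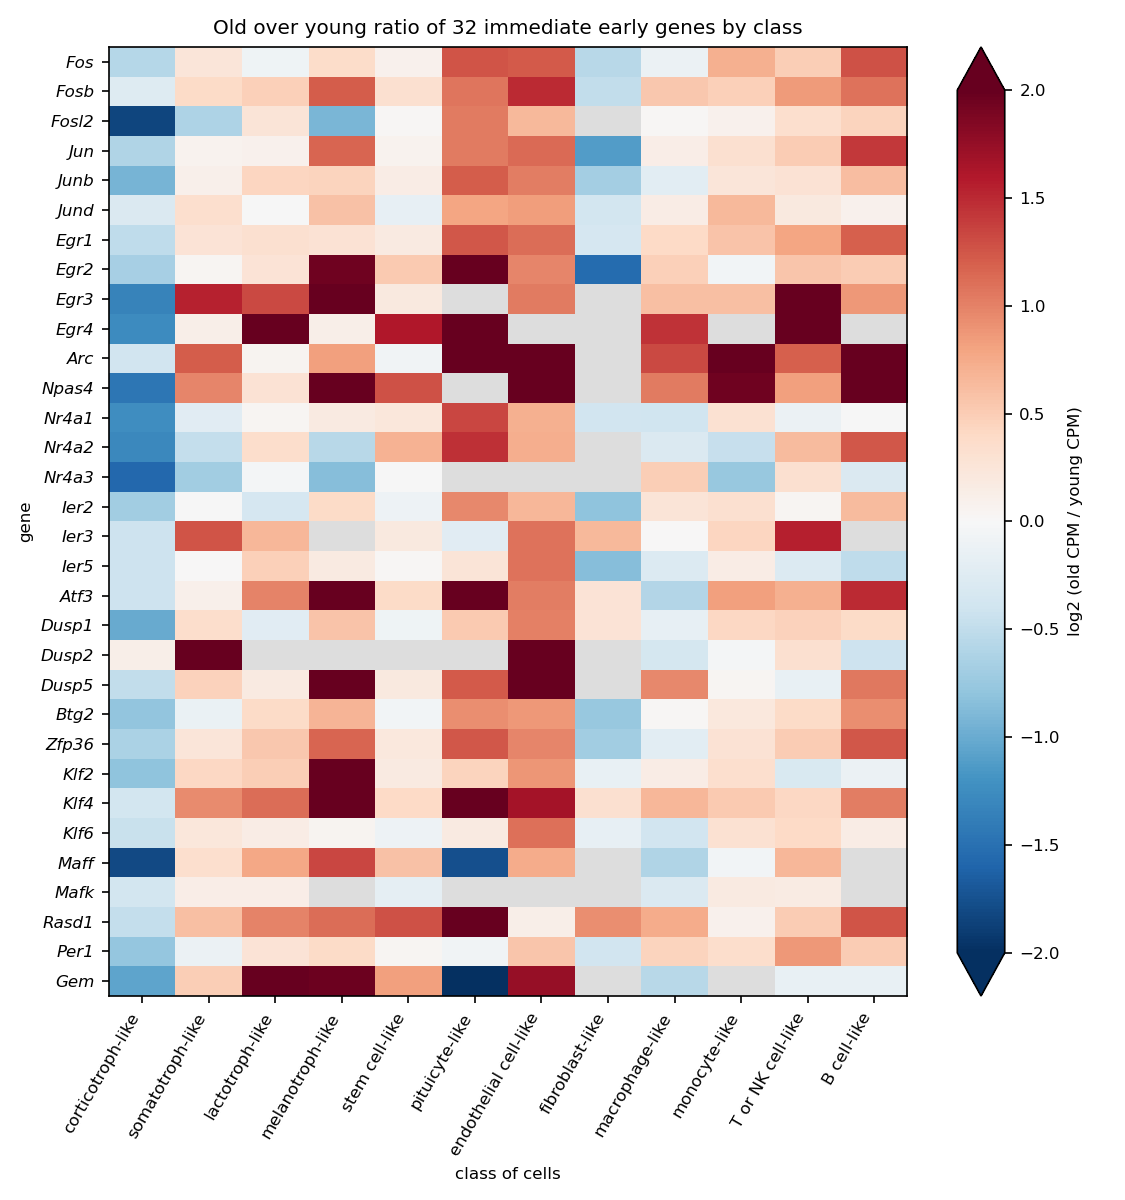
Log2 ratio of old over young CPM of each member (rows) in 12 classes (columns), with colours ending at 2 and -2 and grey for a member with under 20 UMIs in both libraries together. The corticotroph-like column is blue in 31 of 32 rows, and the endothelial cell-like column red in all 29 rows measured.

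Arc, Npas4 and Egr4, known from neurons, were detected in endocrine cells of both libraries, and no class led for all 3 at both ages. Npas4 was highest in young corticotroph-like cells, at 705 CPM, with lactotroph-like cells next at 207 CPM. In the old library it was highest in melanotroph-like cells at 502 CPM, with corticotroph-like cells at 258 CPM. Its ratio of old over young was 0.365 (0.337 to 0.396) in corticotroph-like, 1.97 (1.80 to 2.15) in somatotroph-like, 1.23 (1.08 to 1.40) in lactotroph-like and 4.75 (3.07 to 7.73) in melanotroph-like cells, the last from 21 young UMIs. Empty droplets held 164 and 102 CPM. Somatotroph-like cells, at 51.6 and 102 CPM, thus did not exceed free RNA, while corticotroph-like and lactotroph-like cells did in both libraries. Melanotroph-like cells, at 106 and 502 CPM, lay under it in the young library and above it in the old one.

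Egr4 stood above free RNA in the Pomc classes and in no other endocrine class compared. It stood at 388 (young) and 163 (old) CPM in corticotroph-like cells, with a ratio of 0.419 (0.378 to 0.464). It stood at 488 and 533 CPM in melanotroph-like cells, a ratio of 1.09 (0.878 to 1.37). Somatotroph-like cells held 19.3 and 20.8 CPM and lactotroph-like cells 11.0 and 62.0, all below the 123 and 131 CPM of empty droplets. The ratio of 5.65 in lactotroph-like cells therefore rests on a level under that of free RNA.

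Arc was the most evenly spread. Young levels were 420 CPM in corticotroph-like, 400 in lactotroph-like, 353 in melanotroph-like and 213 in somatotroph-like cells, where the intervals of the first pair overlapped. Old levels were 323, 416, 626 and 494 CPM in the same order, so corticotroph-like cells were first of these in the young and last in the old library. The ratio was 0.769 (0.712 to 0.830) in corticotroph-like, 1.04 (0.944 to 1.15) in lactotroph-like and 1.78 (1.39 to 2.31) in melanotroph-like cells. Empty droplets held 239 and 288 CPM, above young somatotroph-like cells and below every endocrine class of the old library.

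Shares of cells with a UMI, after thinning to 2000 UMIs per cell, followed the levels. For Npas4 they were 48.9% (young) and 27.9% (old) in corticotroph-like cells, 6.75% and 14.2% in somatotroph-like cells and 1.85% and 3.69% in macrophage-like cells, which served as a class without neuronal or endocrine activity. Arc was found in 30.5% and 26.0% of corticotroph-like, 17.9% and 36.4% of somatotroph-like and 3.69% and 8.92% of macrophage-like cells. Egr4 was found in 22.7% and 12.98% of corticotroph-like cells but in 1.75% and 3.76% of somatotroph-like cells, close to the 1.23% and 2.77% of macrophage-like cells. Without thinning, the corticotroph-like shares were 70.5% and 49.6% for Npas4, 47.5% and 55.3% for Arc and 32.8% and 26.3% for Egr4. Median depths before thinning were 7735 and 10273 UMIs in corticotroph-like, 9589 and 6566 in somatotroph-like and 5273 and 5848 in macrophage-like cells. The macrophage-like share of all 3 genes was higher in the old library. The level in empty droplets was lower there for Npas4 (164 and 102 CPM) and higher for Arc (239 and 288) and Egr4 (123 and 131).

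**Figure D5:**
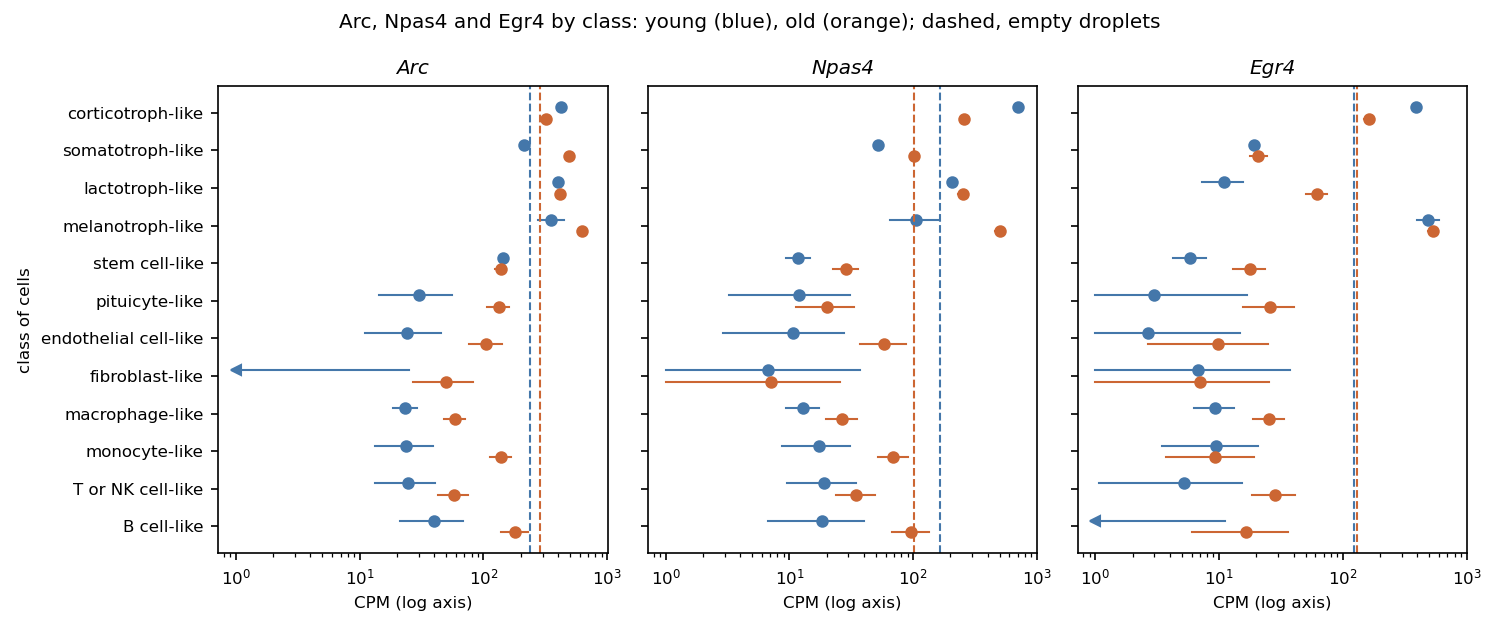
CPM of Arc, Npas4 and Egr4 by class on log axes (young blue, old orange, lines 95% Poisson intervals, arrow for 0 UMIs), with dashed lines at the level in empty droplets of at most 100 UMIs. Npas4 in corticotroph-like cells lies right of both dashed lines, at 705 and 258 CPM, and immune classes lie left of them, apart from the old B cell-like value near its line.

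Stem cell-like cells (977 young, 286 old), the Sox2-positive reserve cells of the gland, had 23 of 31 measured members higher, with a median of 0.18 beside 0.04. Lower were 8, where 45.5% of all genes were. At least 1.5-fold higher were 6, beside 11.7% of all genes, and none was as much lower, beside 5.42%. Highest by ratio were Npas4, at 11.8 and 28.5 CPM (2.41), Rasd1, at 34.5 and 83.2 (2.41), Gem (1.76), Nr4a2 (1.62), Maff, at 71.4 and 107 CPM, and Egr2 (1.43), among members with at least 50 UMIs in the library where they were higher. Egr4, just outside that limit with 43 and 46 UMIs, had a larger ratio of 3.03 (1.96 to 4.70). Egr4, Npas4, Rasd1, Gem and Egr2 lay under the level of empty droplets in both libraries. Lowest were Mafk (0.876), Jund (0.893), Klf6 (0.933), Ier2 (0.935), Dusp1 (0.937) and Arc, at 145 and 138 CPM (0.953). Fos was at 4506 and 4783 CPM, Jun at 4822 and 5049, Junb at 1944 and 2148, Egr1 at 1770 and 2011 and Nr4a1 at 192 and 225. The median turned to -0.14 without doublet removal and to -0.057 with a minimum of 1000 UMIs, so the class had no direction that held.

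Macrophage-like cells (650 young, 325 old) had a median of 0.08, under the 0.22 of all genes. Of 32 members 7 were at least 1.5-fold higher, beside 21.5% of all genes, and 1 as much lower, beside 4.13%. Atf3, at 5072 and 3395 CPM (0.669), Maff (0.658) and Gem (0.682) were lowest by ratio, followed by Nr4a1, at 287 and 217 CPM (0.756), Klf6 (0.768) and Dusp2 (0.783). Arc, at 23.4 and 58.7 CPM (2.51), Npas4 (2.06), Dusp5 (1.94), Rasd1 (1.67), Klf4, at 876 and 1389 CPM (1.58), and Egr3 (1.52) were highest under the same limit. Egr4, just outside it with 31 and 49 UMIs, had a larger ratio of 2.74 (1.71 to 4.45). Of these 7 members all but Klf4 lay below the level of empty droplets in both libraries. Fos was at 9122 and 8428 CPM, Jun at 9047 and 9942, Junb at 3933 and 3389 and Egr1 at 2851 and 3738.

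Smaller classes mostly had more of the family in the old library. Empty droplets held 5050 and 4111 CPM of Fos, 3312 and 2369 of Jun, 5912 and 5146 of Junb and 2484 and 1744 of Egr1. Young levels of these genes lay lower in endothelial cell-like, pituicyte-like, lymphoid, monocyte-like and fibroblast-like cells, as did old Junb. Old Fos did so in all but endothelial cell-like cells, and old Jun and Egr1 in some. Nr4a1 in empty droplets, at 455 and 324 CPM, lay above endothelial cell-like, pituicyte-like and fibroblast-like cells and below the others. In endothelial cell-like cells (84 young, 72 old) all 29 measured members were higher, where 53.2% of all genes were lower. Their median was 1.02 beside -0.04, and 27 were higher by at least 1.5-fold, beside 14.2% of all genes, while none was as much lower, beside 16.8%. Fos stood at 2042 and 4768 CPM, Jun at 3293 and 7205, Junb at 1457 and 2951, Egr1 at 1307 and 2829 and Nr4a1 at 131 and 214. Haemoglobin-type markers of erythroid cells summed to 4045 and 292 CPM in this class, markers of melanotrophs to 206 and 575 and markers of macrophages to 227 and 697, and their part in the result was not tested. Without doublet removal the median was 0.31, from a cluster of 146 and 120 cells that also held fibroblast genes such as Dcn and Mgp among its leading ones, and so is a mixed class.

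Pituicyte-like cells, glia of the posterior lobe (51 young, 87 old), had 23 of 27 measured members higher, a median of 1.07 beside 0.06 and 19 at least 1.5-fold higher, beside 20.1% of all genes, against 2 as much lower, beside 11.0%. Fos was at 1618 and 3861 CPM, Jun at 1612 and 3313, Junb at 898 and 2087, Egr1 at 763 and 1797 and Nr4a1 at 54.0 and 139. Gem went the other way, at 183 and 31.1 CPM, a ratio of 0.170 (0.100 to 0.278), chosen here after its value was seen. The median was 0.51 without doublet removal and 1.64 with free RNA of empty droplets subtracted.

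Lymphoid classes had fewer of these transcripts than endocrine ones. In B cell-like cells (124 young, 83 old) the median was 0.75 beside 0.16, and 16 of 28 members were at least 1.5-fold higher, beside 26.5% of all genes, and none as much lower, beside 8.32%. Fos was at 1252 and 3027 CPM, Jun at 1286 and 3417, Junb at 1783 and 2733, Egr1 at 809 and 1855 and Nr4a1 at 687 and 683. Without doublet removal the median was 0.20. In T or NK cell-like cells (147 young, 169 old) it was 0.48 beside 0.18, with 11 of 32 members at least 1.5-fold higher, beside 23.2% of all genes, and none as much lower, beside 5.52%. Fos was at 1423 and 2009 CPM, Jun at 1223 and 1738, Junb at 2433 and 2968, Egr1 at 555 and 957 and Nr4a1 at 492 and 453. Monocyte-like cells (94 young, 81 old) had a median of 0.32 beside 0.10, with 6 of 30 at least 1.5-fold higher, beside 16.7%, and 1 as much lower, beside 7.37%. Fos was at 2413 and 3936 CPM, Jun at 2282 and 2858, Junb at 2623 and 3090, Egr1 at 868 and 1286 and Nr4a1 at 820 and 1017. Fibroblast-like cells, with 31 young and 39 old cells and 20 measured members, had a median of -0.38 beside 0.05 and 7 at least 1.5-fold lower, beside 16.1% of all genes, and 2 as much higher, beside 19.9%. Fos was at 2306 and 1569 CPM, Jun at 2884 and 1336, Junb at 1150 and 719, Egr1 at 1298 and 1033 and Nr4a1 at 114 and 88.1. The gonadotroph-like class, with 29 old cells, was not compared.

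Related lists were read in the same way in corticotroph-like cells. Other early response genes were lower there for 22 of 29, beside 41.1% of all genes, 13 of them by at least 1.5-fold, beside 7.16%, and their median was -0.51 beside 0.09 over all genes. Cebpd was at 2401 and 1154 CPM (0.481), Csrnp1 at 118 and 58.8 (0.497) and Nptx2 at 7.11 CPM (52 UMIs) and 0.379 CPM (1 UMI, a ratio of 0.0534, 0.00133 to 0.311), while Vgf, which encodes a neuropeptide precursor, was at 52.8 and 104 (1.96), Txnip at 271 and 363 (1.34) and Klf10 at 24.3 and 28.8. For the kinases and factors that signal to SRF and CREB the median was 0.07 and 14 of 24 were higher, so the level of the pathway's own transcripts lay close to that of all genes. Srf itself was at 33.6 and 26.2 CPM, Elk3 at 19.0 and 14.4, Map2k1 at 84.3 and 71.7, Camk2d at 76.5 and 112, and Braf at 67.8 and 88.0. Among 12 measured cAMP and CREB targets 7 were lower, with a median of -0.21. Sik1, a kinase gene that curbs CREB coactivators, was at 52.2 and 18.6 CPM (0.356), Pde10a at 576 and 284 (0.494) and Nfil3 at 93.9 and 51.6, while Scg2 was at 1547 and 2067 (1.34), Pde4d at 42.2 and 50.8 and Pde4b at 21.6 and 22.4. Of 11 MAP kinase feedback genes 6 were lower (median -0.38), among them Errfi1 at 600 and 337 CPM (0.562), Rgs16 at 65.2 and 41.7 and Dusp10 at 14.4 and 7.59. The list went both ways, with 4 genes at least 1.5-fold lower, beside 7.16% of all genes, and 3 as much higher, beside 12.6%. The latter had under 50 UMIs in the old library.

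Heat shock genes, which respond to protein stress, were lower for 11 of 13 members in old corticotroph-like cells, beside 41.1% of all genes, with a median of -0.26. Hspa1a was at 3077 and 1528 CPM (0.497), Dnajb1 at 4036 and 2157 (0.534) and Hspb1 at 1325 and 896 (0.677), while Hspd1 was at 289 and 346 and Dnaja1 at 1346 and 1480. NF-kB early genes had a median of 0.04, with 6 of 12 lower, 2 by at least 1.5-fold, beside 7.16% of all genes. As much higher were 5, beside 12.6%, of which Ccl4 alone had at least 50 UMIs in the old library. Cxcl1 was at 15.2 and 1.90 CPM, Tnfaip3 at 10.5 and 5.31, Nfkbiz at 575 and 390 and Ccl4 at 11.5 and 21.2.

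In somatotroph-like cells heat shock genes had a median of -0.20, opposite in sign to the immediate early genes. Lower were 9 of 13, beside 47.0% of all genes. Hspa1a was at 2839 and 1631 CPM (0.575), Hsph1 at 670 and 396 (0.591) and Hspe1 at 858 and 526 (0.614), while Hspb1 was at 31.4 and 65.8, Hspa4l at 246 and 265 and Dnaja1 at 1659 and 1763. Among 30 other early response genes 24 were higher and the median was 0.16, with Tiparp at 227 and 322 CPM (1.42), Myc at 13.3 and 18.9 and Zfp36l1 at 5.61 and 10.8, while Vgf was at 22.7 and 16.8, Gadd45g at 561 and 490 and Homer1 at 63.9 and 59.7. Signalling genes had a median of 0.06, with Mrtfb at 50.2 and 41.3 CPM, Gnas at 5766 and 4778, Map2k2 at 104 and 86.9, Braf at 66.9 and 92.2 and Crtc3 at 36.9 and 50.4. Sik1 was lower here too, at 26.7 and 11.6 CPM (0.433), with Dbp at 81.2 and 50.5 and Fam107b at 6.02 and 3.55, and Per2 (9.97 and 20.0), Scg2 (334 and 499) and Pde4b (7.75 and 9.21) higher, within a list whose median was -0.12. MAP kinase feedback genes had a median of 0.14, with Phlda1 at 22.1 and 7.11 CPM, Dusp14 at 20.7 and 14.6, Errfi1 at 150 and 135, Spred1 at 4.39 and 7.24, Rgs16 at 44.2 and 58.8 and Dusp10 at 26.1 and 27.9. NF-kB early genes had a median of 0.46, with the chemokine genes Cxcl1 at 52.3 and 7.24 CPM, Ccl3 at 3.84 and 10.7 and Ccl4 at 12.7 and 23.3, the cytokine gene Il1b at 3.03 and 17.0 and Nfkbia at 561 and 505. Markers of macrophages summed to 49.0 and 95.8 CPM in the same cells and markers of neutrophils to 4.21 and 43.2, and their part in these values was not tested.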

How the data were processed

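The authors deposited unfiltered matrices of raw UMI counts, 1 per library, made with Cell Ranger 6.0.2 on build GRCm39 per the submitters' processing notes, while the file header names version 4. Barcodes were kept with at least 2000 UMIs, 500 genes and at most 15% mitochondrial UMIs. Scrublet marked almost none (0.0% and 0.0307%), so the highest scores were removed at 0.8% per 1000 barcodes, 679 young and 766 old. Both libraries were clustered together from 3000 variable genes, 40 principal components and 15 neighbours (scanpy 1.11.5, Leiden resolution 1). Clusters were named by markers of 21 classes, and those under 0.5% Malat1 were set aside, a limit set after the data were seen. UMIs were summed per class and library. Ratios carry exact conditional Poisson intervals and shares exact Clopper-Pearson intervals (not printed), at 95%. The calculation was tested on simulated data. Named were the 6 highest and 6 lowest ratios of members with at least 50 UMIs in the library where they were higher, in classes of at least 200 cells per library, Fos, Jun, Junb, Egr1 and Nr4a1 in every class of at least 30, Arc, Npas4 and Egr4 in endocrine classes, each member's highest class, and 3 and 3 genes of each other list, of which some are not reported here. Members, lists and rules were chosen with earlier results of these data known. Alternatives covered filters, doublets, clustering, totals, free RNA and weights.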

Additional observations from a re-analysis of the deposited data

Results flagged for a closer look

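6 members differed by at least 1.5-fold in opposite directions in 2 classes of at least 200 cells per library, with at least 50 UMIs in the library where they were higher and each counting interval on its own side of 1. Others, such as Arc and Fos, had opposite directions but under 1.5-fold in at least 1 class. None of these differences between classes was tested, since each class came from 1 library per age. In the widest pair of each member, given here, the lower side was the corticotroph-like class. Maff was also lower by at least 1.5-fold in macrophage-like cells (0.658, 0.505 to 0.850). Egr3 had a log2 ratio of 1.55 in somatotroph-like and -1.33 in corticotroph-like cells, a difference of 2.88. Egr4 stood at 2.48 in lactotroph-like cells and -1.25, a difference of 3.73, and Gem at 2.17 in the same class and -1.05, a difference of 3.22. Maff was at 0.77 in lactotroph-like cells and -1.81, a difference of 2.58. Npas4 was at 1.27 in stem cell-like cells and -1.45, a difference of 2.72, and Nr4a2 at 0.70 in that class and -1.29, a difference of 1.99. On the higher side Egr3, Egr4, Npas4, Gem and Maff lay under the level of empty droplets in both libraries, and Nr4a2 in the young one.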

How the results depend on the processing

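Median log2 ratios were recomputed under 16 settings in 12 classes. Of 188 values 177 stayed between the median lower and the median upper end of the single members' counting intervals. That band is not a counting interval of the median itself, and a small shift within it was not judged. The other 11 are these. Without doublet removal the median was -0.14 in stem cell-like, 0.20 in B cell-like, 0.12 in monocyte-like, 0.31 in endothelial cell-like (there merged with fibroblasts) and 0.51 in pituicyte-like cells. With a minimum of 1000 UMIs it was -0.057 in stem cell-like and -1.33 in fibroblast-like cells. With all UMIs as the total it was 0.50 in somatotroph-like cells. With the free RNA profile of 500 to 900 UMIs subtracted it was 0.17 in somatotroph-like and -1.01 in fibroblast-like cells, and with that of at most 100 UMIs 1.64 in pituicyte-like cells. The cause was not tested. Keeping clusters low in Malat1, an alternative chosen after seeing the data, gave -0.62 in corticotroph-like and 0.24 in somatotroph-like cells. Of 1344 values of single genes 1063 kept within their interval, 278 left it and 3 reversed. A reversal was counted only where the main ratio was at least 1.5-fold. Ier3 in somatotroph-like cells was -3.82 and Rasd1 in macrophage-like cells -0.71 with the profile of 500 to 900 UMIs subtracted, and Nr4a2 in stem cell-like cells was -0.064 without doublet removal. Smaller ratios changed sign too and are not among the 3. Egr4 in somatotroph-like cells went from 0.11 to as low as -7.38, and Fos in stem cell-like cells from 0.086 to as low as -0.22. Depth limits members at a few CPM, which free RNA can supply. No paired analysis was possible because each age has 1 library.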
